A study of Mus musculus with 80 samples.

Results

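The livers described here came from mice lacking Adamts12 and were taken 12 h after an injection of CCl4 or of its vehicle. The comparison set CCl4 livers 1 to 4 against vehicle livers 2 to 5, which is 8 of the 10 knockout livers labelled 12 h and 8 of 80 livers in the series. CCl4 liver 5 and vehicle liver 1 were left out because each had the expression pattern of the other treatment. That choice was made from the same expression values, so sizes over 4 against 4 livers are given as a description, and the test used all 10 livers under their labels. The words rose and fell are kept for genes that passed that test, at a Benjamini-Hochberg adjusted p under 0.05. All mice were females 8 weeks old on the C57BL/6J background, and the knockout mice carried the Adamts12-/- genotype. Treated mice received a single intraperitoneal dose of 0.3 ml CCl4 per kg, as a 3% solution by volume in olive oil, and vehicle mice received olive oil alone. Wild-type mice with the same treatments were taken at 12 h, and mice of both genotypes also at 4 h, 24 h and 7 days, with 5 livers in each group. Each liver came from a mouse with a number of its own. Which exons of Adamts12 were deleted, and whether the genotypes were littermates, is not given in the labels.

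CCl4 is a liver toxin that is turned into a reactive radical by cytochrome P450 enzymes, mainly Cyp2e1, which is made by the hepatocytes around the central vein. These pericentral cells are the ones that die, and the liver responds with stress and repair programmes, inflammation and later with cell division. Adamts12 encodes a secreted metalloprotease of the extracellular matrix with thrombospondin repeats.

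Values are normalized counts, which are read counts divided by a size factor for each library. The 10 knockout libraries of 12 h held 22.02 M to 62.1 M reads, and all 80 held 18.65 M to 64.49 M (M, 1e6 reads). Log2 differences are on the scale of log2(value + 1), which understates the change of genes with low values, and are given ± their standard error. For the CCl4 effect in the knockout at 12 h, sizes are from 4 against 4 livers unless stated otherwise. This includes sizes after rose by and fell by. The adjusted p beside such a size is from all 10 livers and does not test that size. Over all 10 the size was 1.01 ± 0.31 for Hspa5, -2.16 ± 0.41 for Oat and -1.33 ± 0.48 for Hmgcs1, for example. A value of 0 still allows up to 3 reads in a library. Levels are not divided by gene length and are not compared between genes.

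Adamts12 itself (chromosome 15, 11064790 to 11349231, plus strand, GRCm38) gave few reads in every liver. It was at 6.9, 25.4, 4.8, 20.3 and 6.2 normalized counts in knockout CCl4 livers 1 to 5 and at 10.5, 21.7, 9.0, 9.2 and 5.8 in knockout vehicle livers 1 to 5. Wild-type livers of 12 h lay at 16.5, 12.1, 11.4, 18.9 and 16.4 after CCl4 and at 20.4, 26.1, 14.2, 26.7 and 14.4 after vehicle. Knockout and wild-type livers overlapped in both treatments, so at 12 h the level alone does not sort livers by genotype. At 24 h after CCl4 the knockout livers ran from 8.2 to 14.4 and the wild-type livers from 29.8 to 75.6, without overlap. The vehicle livers of 24 h overlapped, at 1.3 to 10.3 and 9.8 to 24.3. The knockout livers of 12 h were lower by a mean of -0.68 on the log2 scale (exact two-sided permutation of genotype within treatment over 20 livers, p = 0.0313). Without CCl4 liver 5 and vehicle liver 1 the difference was -0.60 and did not pass (exact permutation p = 0.0748). It did not pass either when CCl4 liver 1, 3 or 5 or vehicle liver 5 was left out singly, with p between 0.00652 and 0.0672 over the single omissions of the 10 knockout livers. CCl4 made no difference beyond the error within the knockout, at 0.18 ± 0.50 over 4 against 4 livers.

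The labels of 2 livers were at odds with their expression. Among wild-type livers, 812 genes differed by at least 2 on the log2 scale between CCl4 and vehicle and passed the test. On these genes a liver was placed at 0 if it matched the wild-type vehicle mean and at 1 if it matched the wild-type CCl4 mean. Knockout CCl4 livers 1 to 4 stood at 0.688, 0.983, 1 and 0.974, and vehicle livers 2 to 5 at 0.034, -0.046, 0.0356 and -0.0281. The library labelled CCl4 replicate 5 stood at -0.02, and the library labelled vehicle replicate 1 at 0.999. An exchange of these 2 labels and an injection without effect in 1 mouse with a response in the other cannot be told apart here. CCl4 liver 1 was the least far along of the 4 retained, and below every wild-type CCl4 liver, which ran from 0.791 to 1.13. The genes were chosen in the wild-type livers, so the wild-type positions are given only as a scale.

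**Figure D1:**
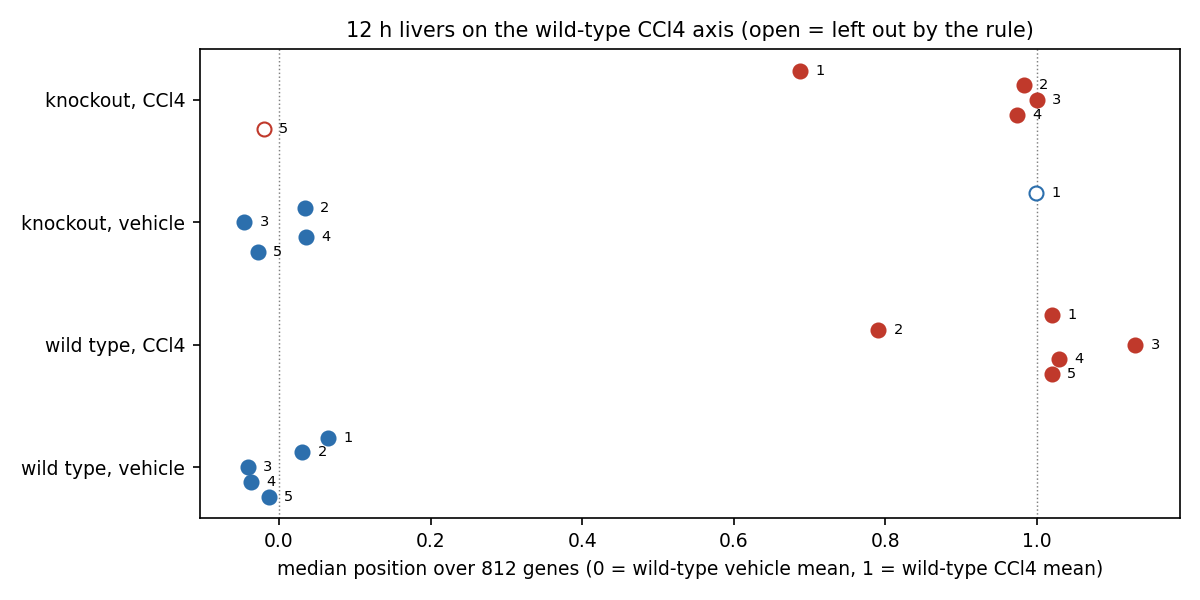
Median position of each 12 h liver over 812 genes (x axis; 0 is the wild-type vehicle mean and 1 the wild-type CCl4 mean), by genotype and treatment, with replicate numbers beside the points and open points for the livers left out. Knockout CCl4 replicate 5 sits at -0.02 among vehicle livers and vehicle replicate 1 at 0.999 among CCl4 livers.

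Over all 10 livers as labelled, 2397 of 14558 genes passed the test, which is 16.5% of the genes; 1485 rose (10.2%) and 912 fell (6.26%). At an unadjusted p under 0.05 there were 4697. Each count of list members that rose or fell below is to be read beside the 10.2% and 6.26% of all genes. Over 4 against 4 livers the fit gave 6805 genes an adjusted p under 0.05 (46.7%), 3439 of them higher and 3366 lower. These counts rest on livers kept for their expression and are a description, not a test, here and wherever genes are called higher or lower over 4 against 4. The same holds for 5265 genes (36.2%) whose 4 CCl4 values and 4 vehicle values did not overlap, and for every statement on overlap of these 8 livers. The calls over 10 livers drew on the spread of the other groups: with the 10 libraries fitted alone, limma called 0 genes, with 1081 at an unadjusted p under 0.05. They also depended on single livers. The count was 5013 without CCl4 liver 5 and 5443 without vehicle liver 1, which are the 2 livers at odds with their labels. It was 299, 196 and 579 without CCl4 livers 2, 3 and 4, and 783, 939, 1185 and 563 without vehicle livers 2 to 5. Of 130 genes chosen by rule for naming, 120 were called and each of these kept its direction whenever a liver was left out. Without CCl4 liver 2, 3 or 4 the call was lost for 77, 86 and 57 of them, and without vehicle liver 2, 3, 4 or 5 for 49, 48, 41 and 63. Without CCl4 liver 1 it was lost for 12, and without either of the 2 livers at odds with their labels for 0.

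CCl4 liver 1 moved less than the other treated livers. It was the lowest of the 4 CCl4 livers for 86.0% of the 1485 genes that rose and the highest for 79.9% of the 912 that fell. Vehicle liver 3 differed from the other vehicle livers in genes of lipid metabolism and of the acute phase, as the values below show. The tissue carried the defining transcripts of hepatocytes in every liver. Alb, which encodes albumin, ran from 1351800 to 2503000 normalized counts in the 4 CCl4 livers and from 2554100 to 4059600 in the 4 vehicle livers. It differed by -0.91 ± 0.38 over 4 against 4 and did not pass over all 10 (limma adjusted p = 0.412). The other hepatocyte transcripts checked were lower after CCl4 too. Apoa1 and Hnf4a fell by 1.36 and 1.34, and Ttr differed by -1.40 without passing. Of pancreas and adipose markers, 1 of 10 was in the table.

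**Figure D2:**
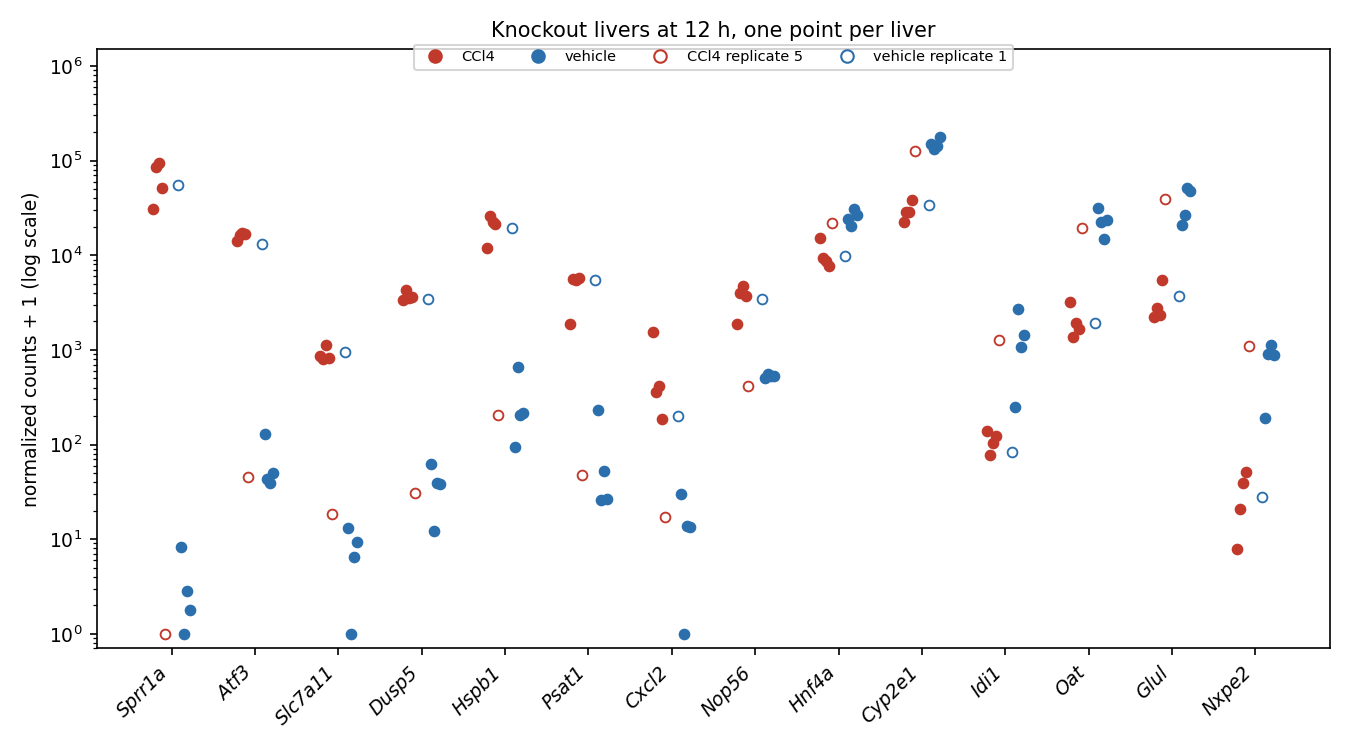
Normalized counts plus 1 (log axis) of 14 named genes in each knockout liver of 12 h, CCl4 in red and vehicle in blue, with open points for CCl4 replicate 5 and vehicle replicate 1. For each gene shown the 4 filled red and the 4 filled blue points do not overlap, and the open points lie with, or next to, the points of the other treatment.

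The largest rises included genes of stress signalling, transport and the cytoskeleton. Sprr1a, which encodes a small proline-rich protein of stressed epithelia, was at 30657, 85703, 94113 and 51832 normalized counts in CCl4 livers 1 to 4. In vehicle livers 2 to 5 it was at 7.2, 0, 1.8 and 0.8, and the 2 livers left out stood the other way round, at 0 in CCl4 liver 5 and 55860 in vehicle liver 1. The difference was 14.51 ± 1.15 over 4 against 4 livers and 8.46 ± 1.78 over all 10 (adjusted p = 0.00247). Atf3, a stress-induced transcription factor, stood at 14132, 16288, 17242 and 16590 after CCl4 and at 126.8, 41.8, 38.6 and 48.7 after vehicle. Vehicle liver 1 was at 13051, near the 4 treated livers, and CCl4 liver 5 at 44.9, among the 4 vehicle livers. The difference over 4 against 4 was 8.13 ± 0.65 (adjusted p over all 10 = 0.00228). Slc7a11, the cystine importer, was at 854.9, 807.7, 1112 and 823.6 against 12.1, 0, 5.5 and 8.3, a difference of 7.40 ± 0.98. Among the other 12 largest rises, Flnc (filamin C, an actin crosslinker) differed by 7.30 ± 1.26 and Rin1 (a Ras effector) by 6.97 ± 0.60. Bmp8b (a ligand of the BMP family) differed by 6.83 ± 0.71, and Dusp5 (a nuclear phosphatase of ERK) by 6.82 ± 0.51. Gsta1, a glutathione transferase, differed by 6.81 ± 0.87 and its close copy Gm3776 by 7.33 ± 1.00; reads of these copies can be split between them, so their separate values are uncertain. Pwwp3b, Foxred2 and the predicted gene Gm49774 completed the group, at 7.63, 6.72 and 7.81; Gm49774 is annotated as antisense, and since the counting is not stated to have used strand, its value is uncertain.

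The largest falls included the pericentral genes Oat and Glul and Idi1 of sterol synthesis. Nxpe2 was at 6.9, 19.6, 38.6 and 50.3 normalized counts in CCl4 livers 1 to 4 and at 190.8, 903.3, 1122.3 and 882.2 in vehicle livers 2 to 5. Vehicle liver 2 was lower than the other 3 vehicle livers and still above every treated liver, and the difference was -4.75 ± 0.60 (adjusted p over all 10 = 0.00854). Oat, ornithine aminotransferase, stood at 3184.1, 1382.8, 1941.9 and 1652.5 against 31613, 22695, 14938 and 23818, a difference of -3.53 ± 0.28 (adjusted p = 0.00178). Glul, glutamine synthetase of the hepatocytes next to the central vein, stood at 2229.5, 2757.6, 2327.4 and 5485.6 against 20950, 26906, 51011 and 47419. Its difference was -3.52 ± 0.32 (adjusted p = 0.00247), with no overlap between the groups. Csrp3 (a muscle LIM protein) fell by 3.55 on the log2 scale, Idi1 (isopentenyl diphosphate isomerase) by 3.21 and Depp1 (a FOXO target) by 3.13. The other large falls were 1700028E10Rik, Gm2788, Tbx3os1, B930025P03Rik, Gm4952 and Gm36419, with differences between -3.40 and -3.12. The value of Tbx3os1, antisense to Tbx3, is uncertain for the same reason as that of Gm49774.

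Heat shock genes, mostly chaperones of the cytosol and mitochondria, gave 10 rises, and chaperones of the endoplasmic reticulum gave 1. Of 18 heat shock genes 10 rose and 0 fell, with a median difference of 1.58 over 4 against 4 livers, against -0.0283 over all genes. Hspb1, a small heat shock protein, was at 11894, 25799, 22221 and 21216 normalized counts after CCl4 and at 94.2, 651.2, 206.1 and 216.2 after vehicle. Its difference was 6.41 ± 0.81 (adjusted p = 0.00653), and vehicle liver 3 was the highest vehicle liver. Hspa8, the constitutive HSC70, stood at 122200, 242780, 260380 and 217890 against 51089, 35176, 32968 and 23537, a difference of 2.56 ± 0.35. Hspa1a and Hspa1b, the inducible HSP70 genes, differed by 4.12 ± 0.65 and 3.30 ± 0.49. These copies are nearly identical, so the split of reads between them is uncertain. Dnajb1, Bag3, Hsp90aa1, Hsp90ab1, Hspd1 and Hspe1 also rose. Of 18 chaperones and folding factors of the endoplasmic reticulum, 1 rose and 0 fell, and 3 were lower in the fit of 4 against 4, with a median of 0.028. That gene was Hspa5, which encodes BiP. It stood at 169110, 203800, 239390 and 212320 after CCl4 and at 90152, 61323, 69185 and 46222 after vehicle. The difference was 1.66 ± 0.30 over 4 against 4 and 1.01 ± 0.31 over all 10 (limma adjusted p over all 10 = 0.019). Hsp90b1, Calr and Xbp1 differed by 0.30, -0.24 and -0.28 and did not pass.

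Promoter sequences of 3 heat shock genes that rose and of Hspa5 are shown because their windows hold the element that is marked; Hspa8 and other rises are not shown. Each is the 250 bases before the transcription start, from RefSeq on GRCm38.p6, 5′ to 3′ on the strand of the gene. They lie at chr5:135887669-135887918 (plus strand) for Hspb1, chr17:34972157-34972406 (minus) for Hspa1a, chr17:34959239-34959488 (minus) for Hspa1b and chr2:34771840-34772089 (plus) for Hspa5. Capitals mark the heat shock element GAANNTTC in the heat shock genes and the endoplasmic reticulum stress element, CCAAT and CCACG with 9 bases between them, in Hspa5.

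Hspb1: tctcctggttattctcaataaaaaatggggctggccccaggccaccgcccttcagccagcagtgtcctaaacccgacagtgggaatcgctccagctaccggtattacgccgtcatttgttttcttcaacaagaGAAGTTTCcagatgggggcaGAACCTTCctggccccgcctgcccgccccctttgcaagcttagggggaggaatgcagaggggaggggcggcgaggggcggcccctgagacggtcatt
Hspa1a: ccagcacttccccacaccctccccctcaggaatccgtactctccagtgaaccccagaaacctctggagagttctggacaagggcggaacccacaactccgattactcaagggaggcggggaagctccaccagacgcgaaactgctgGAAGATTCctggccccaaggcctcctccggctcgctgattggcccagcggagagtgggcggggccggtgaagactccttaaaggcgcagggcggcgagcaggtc
Hspa1b: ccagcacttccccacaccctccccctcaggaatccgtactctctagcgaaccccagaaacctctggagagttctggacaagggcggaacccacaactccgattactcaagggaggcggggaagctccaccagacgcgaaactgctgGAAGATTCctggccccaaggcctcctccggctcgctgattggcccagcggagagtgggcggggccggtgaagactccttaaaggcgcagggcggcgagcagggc
Hspa5: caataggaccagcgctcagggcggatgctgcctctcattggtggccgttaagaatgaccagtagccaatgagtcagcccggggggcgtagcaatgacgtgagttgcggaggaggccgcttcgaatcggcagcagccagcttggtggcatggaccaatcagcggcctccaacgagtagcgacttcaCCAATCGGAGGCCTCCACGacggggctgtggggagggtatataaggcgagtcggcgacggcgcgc

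Hspb1 held 2 matches of GAANNTTC, beginning 117 and 97 bases before the start, and Hspa1a and Hspa1b 1 match each at 104 bases before the start. The printed stretches of Hspa1a and Hspa1b differed at 3 bases. Searched on both strands in windows of 300 bases, from 250 before to 50 after the start, GAANNTTC was present in 10 of 14 heat shock genes with a window and in 7.86% of 32851 windows. The other order of the inverted repeat, TTCNNGAA, was in 4 of the 14 and in 8.52% of windows. The long stress element was in 7 of 16 endoplasmic reticulum genes, among them Hsp90b1 and Calr, and in 0.119% of windows. Of those 7 genes, 1 rose. A match is a description of letters and not a binding site.

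Of the integrated stress response 11 of 18 genes rose, and of serine, one-carbon and cystine metabolism 9 of 16. The stress response slows protein synthesis and acts through the transcription factor Atf4 to raise amino acid supply. Of its 18 genes 0 fell, with a median difference of 2.61. Trib3, a pseudokinase target of Atf4, was at 2423.4, 3962.8, 3966.9 and 5565.9 normalized counts after CCl4 and at 448.1, 106.3, 161.9 and 156 after vehicle, a difference of 4.35 ± 0.51 (adjusted p = 0.00544). Vehicle liver 2 was the highest vehicle liver and still below every treated liver. Nupr1, a stress-induced chromatin protein, differed by 5.20 ± 0.64 and the mitochondrial folate enzyme Aldh1l2 by 6.09 ± 0.68. Ddit3, which encodes CHOP, rose by 4.09, and Atf4 mRNA itself by 1.08. The hormones Fgf21 and Gdf15 differed by 1.55 ± 0.82 and 2.46 ± 0.48 and did not pass. In promoter windows, the letters TGATGNAA of the amino acid response element were present in 7 of 16 of these genes and in 3.97% of all windows, and TGACGTCA in 1 of 16 and 1.79%.

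Of 16 genes of serine, one-carbon and cystine metabolism 9 rose and 0 fell, and 6 were lower in the fit of 4 against 4, with a median of 2.00. Psat1, of serine synthesis, was at 1895.8, 5572.9, 5443.2 and 5721.2 after CCl4 and at 230.7, 24.9, 51.5 and 25.6 after vehicle. CCl4 liver 1 stood below the other 3 treated livers, and the difference was 6.31 ± 0.58 (adjusted p = 0.00346). Phgdh, the entry enzyme of serine synthesis, differed by 6.52 ± 0.80 and the cationic amino acid importer Slc7a1 by 4.54 ± 0.38. Psph, Mthfd2, Mthfd1l, Slc3a2 and Slc7a5 also rose. The genes on the side of methionine and glycine breakdown did not pass, and their differences were negative: Bhmt -1.90, Gnmt -1.31, Cbs -1.14 and Shmt1 -1.27.

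Of 20 antioxidant targets of NRF2, 6 rose and 1 fell, the latter a share near the 6.26% of all genes that fell. Over 4 against 4 livers 15 differences were positive, with 10 genes higher and 2 lower and a median of 0.70. Srxn1, sulfiredoxin, was at 48628, 91138, 81142 and 82729 after CCl4 and at 2039.8, 1753.5, 1768.1 and 1487.1 after vehicle. The groups were far apart, with a difference of 5.40 ± 0.38 (adjusted p = 0.00178). Abcc4, an export pump of the basolateral membrane, differed by 5.35 ± 0.47, and Pgd (of the pentose phosphate pathway) rose by 1.97. Gclm, the modifier subunit of glutathione synthesis, fell by 0.67, and Nqo1 and Hmox1 differed by 0.62 ± 0.30 and 0.79 ± 0.35 and did not pass. The letters TGACNNNGC of the antioxidant response element were in 7 of 18 windows of these genes and in 12.4% of all windows. Of 19 p53 targets 7 rose and 1 fell, with a median of 0.91. Eda2r and Tnfrsf10b, receptors of the TNF receptor family, differed by 2.91 ± 0.52 and 2.13 ± 0.49, and Sesn2 (a sestrin) by 2.76 ± 0.22. Sesn1 fell by 1.34, and Cdkn1a, the p21 gene, differed by 0.60 ± 0.51 and did not pass. Of 8 metallothionein and zinc genes, 0 rose and 0 fell, and 2 were higher and 1 lower in the fit of 4 against 4 livers. Mt1 ranged from 10951 to 58221 in the 4 CCl4 livers and from 628.6 in vehicle liver 3 to 71588 in vehicle liver 4.

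Signalling genes of the immediate early response and phosphatases that switch MAP kinases off rose. Of 17 immediate early genes 9 rose and 0 fell, with a median of 2.27. Myc was at 3979.2, 6034.7, 6843.1 and 5798.3 after CCl4 and at 178.7, 71.2, 114.1 and 113.1 after vehicle, a difference of 5.60 ± 0.51 (adjusted p = 0.00344). Ier3, Maff, Klf4, Klf6, Ccn1, Jun and Ier5 rose by 4.57, 4.55, 4.38, 3.69, 3.95, 3.60 and 1.81. Fos was at 1611.4 in CCl4 liver 1 and at 56.8 to 90.1 in CCl4 livers 2 to 4, beside 49.5 to 66.4 in the vehicle livers, so its difference of 1.34 ± 0.62 rested on that liver and did not pass. Egr1 showed the same single high liver, at 10406 against 830 to 1213.5. Of 10 MAP kinase phosphatases 7 rose and 0 fell, with a median of 3.41. Dusp4, Dusp1, Dusp8, Dusp10 and Dusp14 differed by 5.62, 4.45, 4.40, 3.52 and 3.30, while Dusp6 differed by 0.60 ± 0.39 and did not pass.

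Genes for making ribosomes rose, 17 of 20 of them. None of the list fell (0 of 20), and for all 20 the 4 treated and 4 vehicle values did not overlap, with a median difference of 1.60. Nop56, of the box C/D ribonucleoproteins, was at 1881, 3994, 4673.2 and 3709.9 after CCl4 and at 507.2, 550.6, 528 and 525.7 after vehicle. The vehicle livers were close to each other and CCl4 liver 1 was the lowest treated liver, with a difference of 2.68 ± 0.26 (adjusted p = 0.00501). Ncl (nucleolin), Rrp9 and Rrp12 differed by 2.22 ± 0.19, 2.41 ± 0.22 and 2.22 ± 0.27. Keratins and cytoskeletal genes also rose, 8 of 16 with 0 falling and a median of 2.07. Krt8 and Krt18, the keratin pair of hepatocytes, rose by 2.83 and 1.83. Anxa2, an annexin at membranes, was at 6271.2, 14163, 14672 and 15944 against 393.7, 402.5, 347.7 and 307, and differed by 5.05 ± 0.36. The tubulin genes Tubb2b and Tubb6 differed by 5.78 ± 0.66 and 3.53 ± 0.30. Of 25 proteasome genes 0 passed limma over 10 livers and 9 were higher over 4 against 4, with a median of 0.25.

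**Figure D3:**
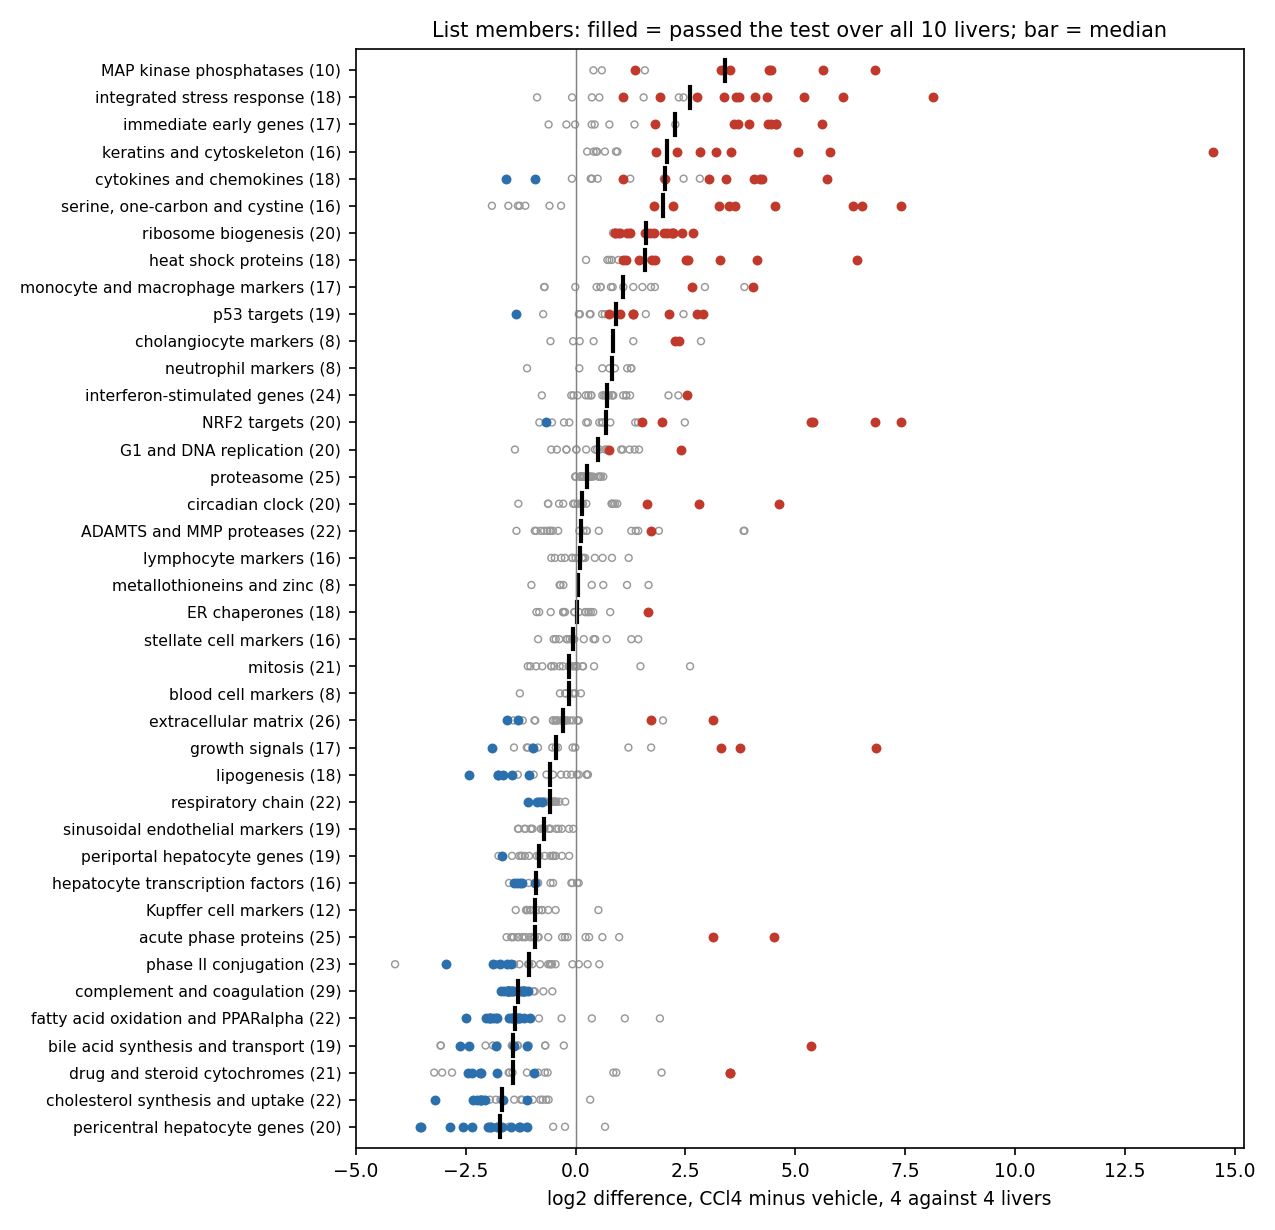
Log2 difference of CCl4 minus vehicle over 4 against 4 knockout livers (x axis) for the tested members of each gene list (rows, number tested in brackets); filled red and blue points passed the test over all 10 livers, open points did not, and black bars are medians. MAP kinase phosphatases have the highest median at 3.41 and pericentral hepatocyte genes the lowest at -1.73.

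Genes of pericentral hepatocytes fell. Of 20 genes 0 rose and 14 fell, with a median difference of -1.73. Cyp2e1, which activates CCl4, was at 22467, 28547, 28846 and 38762 normalized counts after CCl4 and at 149730, 130960, 141790 and 179190 after vehicle. The groups did not overlap, and the difference was -2.36 ± 0.26 (adjusted p = 0.00247). Slc13a3, a dicarboxylate transporter, and Slc1a2, a glutamate transporter, differed by -2.86 ± 0.45 and -2.55 ± 0.37. Lgr5, the R-spondin receptor, fell by 1.99, while the Wnt targets Axin2, Rnf43 and Znrf3 differed by -0.51, -0.24 and 0.67 and did not pass. In whole liver tissue, fewer cells of a type and less RNA per cell cannot be told apart. Periportal genes gave 1 fall and 0 rises of 19, with all 19 differences negative over 4 against 4 livers and a median of -0.83. The gene that fell was Pigr, the polymeric immunoglobulin receptor, at 32869, 11491, 10963 and 12750 against 49093, 61632, 37161 and 47610. Its difference was -1.67 ± 0.23, and CCl4 liver 1 stood well above the other treated livers.

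Among 21 drug and steroid cytochromes 2 rose, a share near the 10.2% of all genes that rose, and 6 fell, beside 6.26% of all genes. Cyp2b10 and Cyp1a1, which are induced through the receptors CAR and AHR, differed by 3.51 ± 0.74 and 3.51 ± 0.58. Cyp1a1 stayed low, at 28.1, 34.3, 44.4 and 77.1 against 1.2, 13.6, 0 and 5.8. Cyp2c50, Cyp2c37 and Cyp2c54 fell by 2.44, 2.18 and 2.15; reads of this gene cluster may be shared, so single members are uncertain. Of 23 conjugating enzymes 0 rose and 5 fell, with a median of -1.05, led by Sult2a8 (a sulfotransferase of bile acids) at -2.94 ± 0.55. Ugt2b1 and Ugt1a1, glucuronosyltransferases, differed by -1.89 ± 0.36 and -1.72 ± 0.38, and Gstz1 by -1.57 ± 0.25.

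Bile acid importers and the corepressor gene Nr0b2 fell. Of 19 bile acid genes 1 rose and 5 fell, with a median of -1.43. The hepatocyte importers Slco1b2 and Slc10a1 differed by -2.42 ± 0.36 and -1.81 ± 0.29, and the gene that rose was the exporter Abcc4. Nr0b2, the corepressor SHP, was at 739.5 in CCl4 liver 1 and at 50.5, 46.4 and 93.2 in CCl4 livers 2 to 4, beside 614.7, 767.6, 783.8 and 683.3 in the vehicle livers. CCl4 liver 1 thus lay within the vehicle range, and the difference was -2.64 ± 0.80 (adjusted p = 0.0363). CCl4 liver 5, with the vehicle pattern elsewhere, was at 81.1 here, near CCl4 livers 2 to 4, and vehicle liver 1 was at 90.8. The call as labelled thus drew on a liver at odds with its label. In wild type Nr0b2 differed by -0.56 and did not pass (limma adjusted p = 0.527). Cyp8b1, of cholic acid synthesis, differed by -3.07 ± 0.66 without passing over 10 livers.

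Among lipid genes, the vehicle livers were spread widely, with livers 2 and 3 at opposite ends for Hmgcs1, Idi1 and Cpt1a. Of 22 cholesterol genes 0 rose and 9 fell, with a median of -1.68. Hmgcs1, HMG-CoA synthase, was at 1731.1, 1653.6, 1719.7 and 2348.7 after CCl4 and at 2933.5, 24085, 10712 and 9989 after vehicle. Vehicle liver 3 was the highest and vehicle liver 2 the lowest, and the difference was -2.34 ± 0.46 (adjusted p = 0.0448). Idi1 stood at 138.8, 77.4, 102.4 and 122.1 against 246.4, 2678.3, 1065.3 and 1431. Insig1, a sterol-regulated anchor of the endoplasmic reticulum, differed by -2.24 ± 0.48. Of 22 genes of fatty acid oxidation and of its regulator PPARalpha 0 rose and 17 fell, with a median of -1.38. Cpt1a, of mitochondrial import, was at 6606.5, 3020.6, 3315.7 and 4415.7 after CCl4 and at 36232, 6011.1, 15935 and 18667 after vehicle. Here vehicle liver 3 was the lowest vehicle liver and lay below CCl4 liver 1, and the difference was -1.95 ± 0.28 (adjusted p = 0.00612). Ppara mRNA fell by 1.94. Of 18 lipogenic genes 0 rose and 6 fell, with a median of -0.59; Lpin1, Elovl5, Mlxipl and Gpam differed by -2.42, -1.77, -1.76 and -1.66, while Fasn and Scd1 differed by -0.66 and -0.33 and did not pass. Of 22 respiratory chain genes 3 fell, among them Sdha and Atp5a1 by 1.09 and 0.87.

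Hepatocyte transcription factors and complement and coagulation genes gave falls and 0 rises. Of 16 transcription factors 0 rose and 5 fell, with a median of -0.89. Hnf4a, the central regulator of hepatocyte genes, was at 15190, 9431, 8725.1 and 7599.7 after CCl4 and at 24015, 20268, 30490 and 26354 after vehicle. The difference was -1.34 ± 0.16 (adjusted p = 0.0036), with no overlap. Cebpa, Prox1, Rxra and Foxa2 fell by 1.40, 1.27, 1.22 and 0.93. Of 29 complement and coagulation genes 0 rose and 20 fell, and all 29 had negative differences over 4 against 4 livers, with a median of -1.32. Plg, plasminogen, was at 70541, 33071, 34512 and 34250 against 126170, 105190, 130370 and 121230, a difference of -1.56 ± 0.18. F13b, C4b and F9 differed by -1.70 ± 0.28, -1.62 ± 0.23 and -1.55 ± 0.17. Of 25 acute phase genes 2 rose and 0 fell, with a median of -0.93. Cd14, a co-receptor for bacterial lipopolysaccharide, was at 2840.3, 3897.7, 3235.6 and 3807.3 against 146.1, 79.1, 277.8 and 152.7, a difference of 4.51 ± 0.52. The interleukin 1 receptor antagonist Il1rn differed by 3.13 ± 0.63. Saa1 ranged from 39880 to 119010 in the treated livers and from 1840.5 in vehicle liver 3 to 636540 in vehicle liver 4, and did not pass.

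Of 18 cytokine and chemokine genes 8 rose and 2 fell, beside 10.2% of all genes rising and 6.26% falling, with a median of 2.03. Cxcl2, a neutrophil attractant, was at 1535.1, 361.7, 416.4 and 184.2 after CCl4 and at 29, 0, 12.9 and 12.4 after vehicle, a difference of 5.72 ± 0.82 (adjusted p = 0.00334). Ccl2, Cxcl10, Ccl7, Ccl4, Tnf, Ccl5 and Csf1 rose by 4.25, 4.21, 4.07, 3.42, 3.03, 2.04 and 1.08, and Cxcl12 and Il18 fell by 1.58 and 0.93. Of 17 monocyte and macrophage markers 2 rose, a share near that of all genes, Cd63 by 4.03 and Lgals3 by 2.65, with a summed level of 10634.4 to 20198.7 in the treated and 5612 to 16089.3 in the vehicle livers. Of 12 Kupffer cell markers 0 passed limma and 7 were lower over 4 against 4, with a median of -0.93 and sums of 7792.8 to 25378.8 against 16512.5 to 33165.8. Of 19 sinusoidal endothelial markers 0 passed and 9 were lower over 4 against 4, with a median of -0.72 and sums of 9779.2 to 14433 against 17850.2 to 23630.7, which did not overlap. Of 8 neutrophil markers 0 passed in either fit, with a median of 0.83 and sums of 844.4 to 2483.8 against 188.8 to 1525.2. Of 16 lymphocyte, 16 stellate cell and 8 blood cell markers 0 passed over 10 livers, with medians of 0.11, -0.07 and -0.14. The part of these cells in the cytokine values was not tested. Of 8 cholangiocyte markers 2 rose, Epcam and Sox9, by 2.36 and 2.26, and Krt7 and Krt19 differed by 0.09 and 0.41. Of 24 interferon-stimulated genes 1 rose, Oasl1 by 2.53. Over 4 against 4 livers 21 of the 24 differences were positive, with a median of 0.72. In that fit 10 were higher and 1 lower, beside 23.6% and 23.1% of all genes.

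Matrix genes were called about as often as all genes. Of 26 matrix genes 2 rose and 2 fell, beside 16.5% of all genes called, with a median of -0.29: Thbs1 (thrombospondin 1) and Lamc1 (a laminin chain) differed by 3.13 ± 0.76 and 1.71 ± 0.21, and Col18a1 and Vtn (vitronectin) fell by 1.57 and 1.31. Of 22 ADAMTS, MMP and TIMP genes 1 rose. This was Adamts1, at 1510.2, 1154.8, 1408.6 and 754 against 419.1, 416, 255.7 and 346.6, a difference of 1.72 ± 0.35 (adjusted p = 0.0219). Mmp12 and Mmp13, macrophage elastase and a collagenase, differed by 3.84 ± 0.91 and 3.82 ± 0.68 without passing over 10 livers. Among growth signals 3 of 17 rose and 2 fell: Hbegf and Btc, ligands of the EGF receptor, differed by 3.74 ± 0.43 and 3.31 ± 0.30 beside Bmp8b, and Socs2 and Igfbp2 fell by 1.89 and 0.97. Genes of DNA replication gave 2 rises of 20, a share near the 10.2% of all genes that rose, Cdt1 (origin licensing) by 2.41 and Pcna by 0.76, and of 21 mitosis genes 0 passed, with 2 higher and 1 lower over 4 against 4. Ccnd1, cyclin D1, overlapped between the groups and differed by 0.55 ± 0.39.

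Clock genes were called about as often as all genes. Of 20 genes 3 rose and 0 fell, beside 10.2% of all genes rising and 6.26% falling, with a median of 0.15, and the core genes Arntl, Per2 and Nr1d1 differed by -0.63, 0.17 and -0.62. Ciart, a repressor within the clock, was at 139.3, 177.2, 221.2 and 259.2 after CCl4 and at 3.6, 4.5, 12.9 and 9.9 after vehicle. The difference was 4.63 ± 0.63 (adjusted p = 0.00612). Bhlhe41 and Cry1, also repressors, differed by 2.81 ± 0.71 and 1.63 ± 0.36. The promoter of Ciart is shown because it holds more than 1 E-box, the CACGTG site of clock factors, in capitals. It is the 250 bases before the start on the minus strand, chr3:95882229-95882478, from RefSeq on GRCm38.p6.

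Ciart: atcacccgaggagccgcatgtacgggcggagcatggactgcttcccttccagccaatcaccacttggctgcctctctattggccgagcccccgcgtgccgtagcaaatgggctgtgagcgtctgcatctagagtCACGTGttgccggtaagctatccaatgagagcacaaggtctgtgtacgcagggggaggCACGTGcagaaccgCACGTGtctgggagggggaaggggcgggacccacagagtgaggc

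CACGTG occurred 3 times in Ciart, between 116 and 44 bases before the start, and in 5 of 17 clock genes and 7.15% of all windows. The D-box letters TTATGTAA were in 1 of 17 and 0.938%.

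The knockout response at 12 h was set against that of wild-type livers of the same time, which share no control livers with it. In wild type 8365 genes passed (57.5%), with 28.6% of all genes higher and 28.9% lower. Of the 2397 genes called in the knockout over 10 livers, 2331 were called in the same direction in wild type. These are 97.2% of the knockout calls and 27.9% of the wild-type calls. In opposite directions 0 were called. The 27.9% rests on calls made with the 2 livers at odds with their labels. Over 4 against 4 livers 6805 genes had an adjusted p under 0.05, and their overlap with wild type was not counted. The difference of the effects, knockout minus wild type, passed for 0 genes (0% of those tested) in the fit of all livers as labelled and in that with 4 against 4 knockout livers, with limma and with voom weights alike. At an unadjusted p under 0.05 there were 2643 (18.2%) as labelled and 410 (2.82%) over 4 against 4, and the smallest adjusted p was 0.103 and 1. The fit as labelled holds the 2 livers at odds with their labels. For Atf3, for example, the difference of the effects was -2.89 as labelled and 0.36 over 4 against 4. The median standard error of the difference of the effects was 0.32 over 4 against 4. Differences several times that size did not pass for genes with wider errors, so differences between the genotypes are not excluded. List medians, given side by side and not tested, were for heat shock genes 1.58 in knockout and 1.72 in wild type, integrated stress response 2.61 and 3.18, ribosome biogenesis 1.60 and 1.78, pericentral genes -1.73 and -1.60, and cholesterol genes -1.68 and -1.83. Mitosis genes had medians of -0.14 and -1.07, and ADAMTS, MMP and TIMP genes 0.13 and -0.60. Flnc, Cxcl2 and Nr0b2, named after their values were seen, had differences of 3.03 ± 1.69, 2.45 ± 1.11 and -2.07 ± 1.08, all with an adjusted p of 1.

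**Figure D4:**
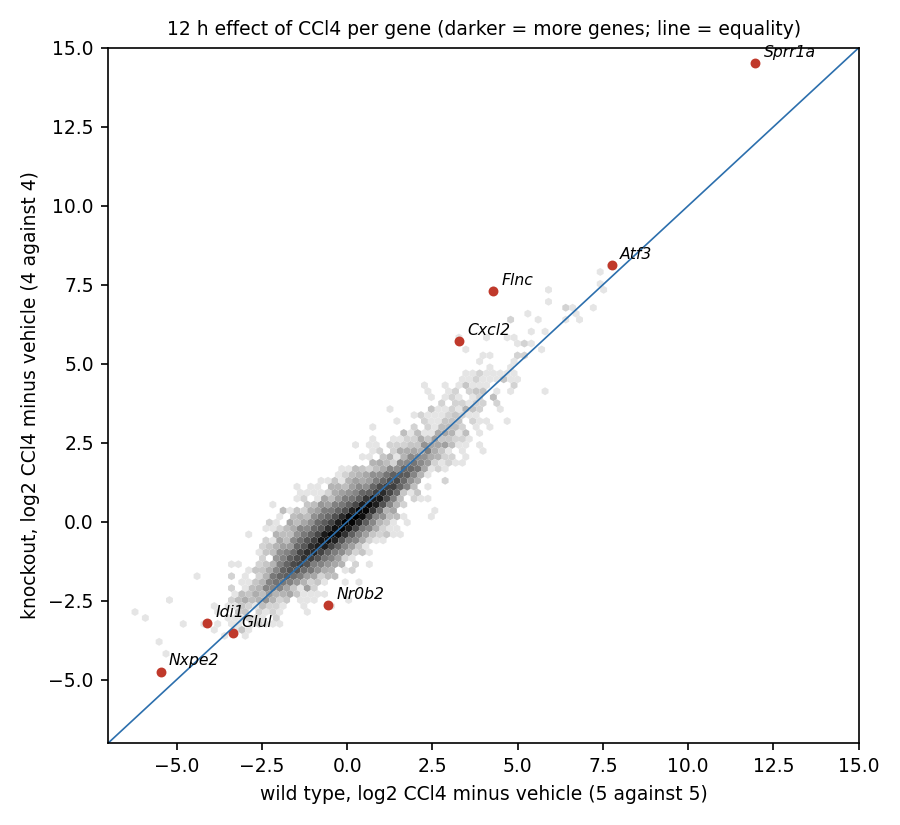
Log2 difference of CCl4 minus vehicle at 12 h for each tested gene in wild type (x axis, 5 against 5 livers) and knockout (y axis, 4 against 4 livers), with darker cells for more genes and a line of equality. Most genes lie along the line; the labelled Flnc, Cxcl2 and Nr0b2 lie off it with differences of 3.03, 2.45 and -2.07, which did not pass the test.

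Within the knockout, the effect at 12 h was compared with that at 24 h, each against vehicle livers of its own time. A gene was called only where the difference passed both over all livers as labelled and over 4 against 4. This held for 113 genes (0.776%), of which 58 (0.398%) were higher and 55 (0.378%) lower at 12 h. The count rests on few livers: with only the libraries of the contrast it was 4, and it was 181 and 177 without CCl4 liver 1 and vehicle liver 1, and 67 and 71 without CCl4 liver 3 and 4. In the single fits 178 (1.22%; 0.687% higher and 0.536% lower) and 737 (5.06%; 3.83% higher and 1.24% lower) passed. The CCl4 effect itself passed for 5978 genes at 24 h (41.1%), 5097 at 4 h (35%, of which 19.7% of all genes higher) and 55 at 7 days (0.378%).

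Cdkn1c, which encodes the cell cycle inhibitor p57, had its highest mean at 12 h among the knockout CCl4 groups. Its mean was 715.1 ± 412.0 normalized counts in the 4 CCl4 livers (SD, n = 4), with 231.5 the lowest and 1233.4 the highest, beside 40.4 to 83.7 in the 4 vehicle livers. At 24 h the CCl4 livers were at 67.2 ± 30.0 and the vehicle livers at 89.7 ± 30.6 (n = 5 each), and at 4 h at 95.8 ± 32.6 and 77.8 ± 24.8. The effect at 12 h exceeded that at 24 h by 3.96 ± 0.49 (adjusted p = 0.0215 as labelled). Fhod3 (a formin), Cdcp1 (a transmembrane receptor) and Fhad1 had differences of 3.38 ± 0.52, 2.90 ± 0.45 and 2.24 ± 0.45, and Phlda1 of 2.72 ± 0.52. Slc1a2 was lower at both times and lower still at 24 h. It was at 825.2 ± 305.2 in treated livers of 12 h and at 199.2 ± 147.8 in those of 24 h, with vehicle livers at 4628.1 ± 685.8 and 7039.7 ± 1342.5, and a difference of 3.10 ± 0.50. Orm3 and Upp2 were not called at 12 h, at 0.23 ± 0.78 and -0.98 ± 0.74, and at 24 h were below vehicle by 3.14 and 4.18. The vehicle livers also differed between the times. Orm3 means at 12 h and 24 h were 397.6 and 1381.4 after vehicle and 480.0 and 173.1 after CCl4. Those of Upp2 were 1281.7 and 2178.5 after vehicle and 420.2 and 212.6 after CCl4. At 12 h vehicle liver 3 held 4239.6 of Upp2 and the other vehicle livers 196.9 to 423.9.

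Genes lower at 12 h than at 24 h included Cd68, Tagln and the cell cycle gene Ccnd1. Of 17 monocyte and macrophage markers 1 was called between the times, and of 16 stellate cell markers 2, beside 0.776% of all genes. Cd68, a lysosomal protein of macrophages, was at 728.9 ± 230.3 in treated livers of 12 h and at 482.7 ± 107.7 in vehicle livers, with overlap. At 24 h it was at 3139.8 ± 1764.1 and 407.7 ± 166.8, and the effects differed by -2.27 ± 0.55 (adjusted p = 0.00479 as labelled). Tagln, of smooth muscle and myofibroblasts, was at 117.0 ± 37.4 against 89.0 ± 82.9 at 12 h and at 547.5 ± 157.7 against 47.9 ± 29.0 at 24 h. The effects differed by -2.92 ± 0.83. Ccnd1 was at 3810.5 ± 1166.7 against 2660.0 ± 1073.7 at 12 h and at 4305.3 ± 2179.5 against 567.8 ± 93.3 at 24 h. The vehicle livers of the 2 times differed more than the treated ones for this gene, and the effects differed by -2.20 ± 0.52. The class II genes H2-Eb1, Cd74, H2-Aa and H2-Ab1 differed by -2.09, -2.05, -2.02 and -1.98. The vehicle livers of the 2 times differed more than the treated ones here too. H2-Aa was at 1760.5 ± 981.8 in vehicle livers of 12 h and 483.4 ± 217.2 in those of 24 h, and at 927.6 ± 321.1 and 1167.2 ± 402.2 in treated livers. Of the 12 h vehicle livers, liver 4 at 390 lay within the range of the 24 h vehicle livers, and the other 3 lay above it, at 1863.1 to 2710.1. Ehhadh, of peroxisomal oxidation, fell at 12 h and differed by 0.64 ± 0.35 at 24 h, a difference of -2.45 ± 0.47. Its vehicle livers were at 18321.3 ± 10719.3 at 12 h and 5530.9 ± 1045.4 at 24 h, and its treated livers at 5386.4 ± 3260.6 and 8647.5 ± 1916.7, so the vehicle groups differed more than the treated ones.

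Some groups of genes were further along or further back at the neighbouring times. Heat shock genes had a median difference of 2.03 at 4 h, 1.58 at 12 h and 0.93 at 24 h in the knockout, and Hspa1b went from 31349.4 ± 7345.5 in treated livers of 4 h to 3865.0 ± 1649.5 at 12 h and 672.4 ± 413.5 at 24 h. Serine and cystine genes had medians of 0.78, 2.00 and 1.03, and Psat1 was at 1331.3 ± 203.3, 4658.3 ± 1845.1 and 1282.7 ± 578.1. Cholesterol genes had medians of 0.35, -1.68 and -1.20. Monocyte and macrophage markers had medians of -0.06, 1.09 and 2.17, and replication genes of -0.0047, 0.52 and 1.20. These medians describe the lists and were not tested between times.

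**Figure D5:**
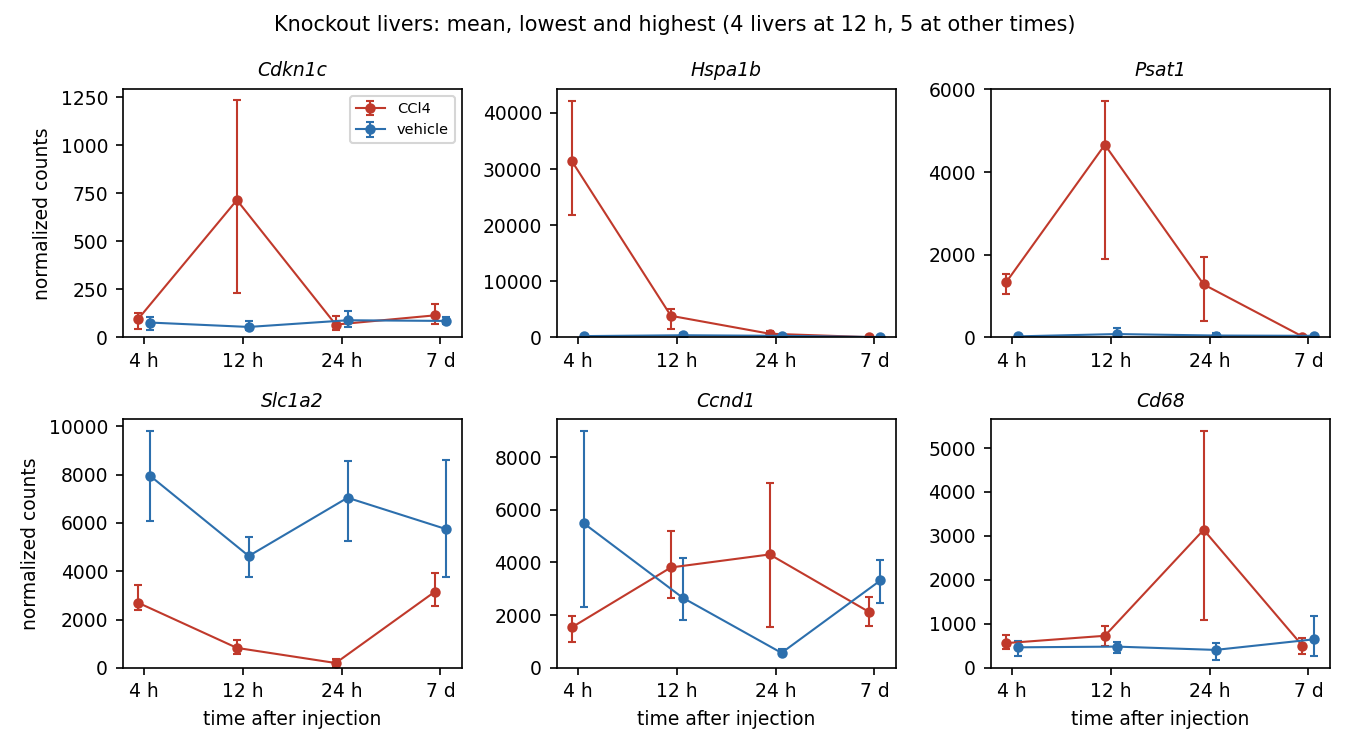
Normalized counts (y axis, linear from 0) of 6 genes in knockout livers at 4 h, 12 h, 24 h and 7 days (x axis, not to scale), with points for means and bars from the lowest to the highest liver, CCl4 in red and vehicle in blue (n = 4 at 12 h, 5 at other times). Cdkn1c and Psat1 have their highest treated means at 12 h (715.1 and 4658.3), Hspa1b at 4 h and Cd68 at 24 h.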

How the data were processed

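RNA from 80 mouse livers was sequenced from 500 ng total RNA as stranded mRNA libraries, per the labels. The submitters' processing notes name STAR, HTSeq, DESeq2 and GRCm38, without versions. The deposited values are a normalized signal, read counts that the authors divided by a size factor per library, in a table of 14560 genes. Each library's values were whole multiples of a step (tolerance 0.01), from which depth and whole reads were recovered. Among the fits, the whole reads entered only the one with voom weights. Genes with at least 10 normalized counts in 5 libraries were kept (14558; 2 removed). Values were analysed as log2(value + 1) with limma 3.58.1 (R 4.3.3) with a variance trend and a mean for each of 16 groups, in 80 libraries as labelled and in 78 without the 2 livers. Benjamini-Hochberg adjustment ran over all genes. The script was tested on simulated data. Positions are from GENCODE M21 (14550 genes placed). Promoter windows from RefSeq were found for 545 of 710 measured list genes. Named were Adamts12, the 12 largest rises and falls with a mean of at least 100, up to 4 called members per list, and up to 8 genes per direction for the differences from wild type and 24 h. Other list members printed beside these were chosen after their values were seen. Members and lists were chosen with earlier results of these data known. Alternatives were another pseudocount, scaling, variance prior, voom weights, a replicate block, fewer libraries and each knockout 12 h liver left out. Some results for single genes are not reported here.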

Additional observations from a re-analysis of the deposited data

Results flagged for a closer look

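Among named genes, 22 livers stood apart from the other 3 of their group of 4 by more than Dixon's limit, out of 254 groups checked; chance flags about 1 in 20 groups. CCl4 liver 1 accounted for 10 of them. It was below the other treated livers for Gm49774 (411.1 normalized counts), Psat1 (1895.8), Cdt1 (241.5), Anxa2 (6271.2) and Tubb6 (3710.1), all of which rose. It was above them for Ugt2b1 (4139.1), Pigr (32869.4), C4b (46493.5) and Plg (70541.2), all of which fell, and for Cxcl10 (4910.4), which rose. CCl4 liver 4 was low for Hspa1b (1443.7) and Cry1 (959.6) and high for Hmgcs1 (2348.7), and CCl4 liver 3 was low for H2-Ab1 (462.8). Vehicle liver 2 was low for Nxpe2 (190.8) and high for Nupr1 (172.7), Slc7a1 (105.1) and Rrp9 (321.2). Vehicle liver 3 was low for Rxra (14997.9) and Il1rn (73.5) and high for Oasl1 (755.2), and vehicle liver 4 was low for Cd74 (1043.2). The CCl4 effect in the knockout differed between 12 h and 24 h by the test of that difference in both fits. It was higher at 12 h by 3.96 on the log2 scale for Cdkn1c, 3.38 for Fhod3, 3.37 for Orm3, 3.20 for Upp2, 3.10 for Slc1a2, 2.90 for Cdcp1, 2.72 for Phlda1 and 2.24 for Fhad1. It was lower at 12 h for Tagln (-2.92), Ehhadh (-2.45), Cd68 (-2.27), Ccnd1 (-2.20), H2-Eb1 (-2.09), Cd74 (-2.05), H2-Aa (-2.02) and H2-Ab1 (-1.98).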

How the results depend on the processing

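Under pseudocount 8, no filter, quantile normalization, a constant prior variance and voom weights on whole reads (the last chosen after seeing the data), the counts of called genes stayed within 1.5 times of the reported ones, and no called gene among those named changed sign in any alternative; the uncalled CCl4 effects on Adamts12 (-0.30 to 0.26) and Upp2 (-1.09 to 0.20) did. Quantile normalization moved 16 of 82 list counts by over 1.5 times and cost 17 named genes their calls. With only the libraries of each contrast, calls as labelled went from 2397 to 0 and the 12 h minus 24 h difference from 113 to 4. The 4 against 4 count went from 6805 to 5653. The spread was then estimated from those libraries alone. As labelled, they include the 2 livers at odds with their labels, and the 4 against 4 fit does not. Leaving out each knockout 12 h liver in turn (no liver of another group was left out) gave 196 to 5443 calls as labelled, 5869 to 7206 over 4 against 4, and 67 to 181 for 12 h minus 24 h. The Adamts12 difference ran from -0.83 to -0.56 on leaving out single livers, and was -0.60 without both livers at odds with their labels, no longer past the threshold. The knockout minus wild type difference gave 0 calls in both fits throughout. As labelled alone it gave 148 without CCl4 liver 4, 24 without vehicle liver 5 and 10 without vehicle liver 4. Those fits hold the 2 livers at odds with their labels. Over 4 against 4 it gave 0 with the same livers left out. The share of higher genes among calls as labelled was 62%, and 58% after quantile normalization. The planned edgeR fit was not run, and the fit with voom weights on the recovered whole reads took its place. With the replicate block the counts were 2364, 6783, 0 and 110, and Insig1, Bhlhe41, Cry1 and Sdha were among the genes that lost their calls (adjusted p 0.0503 to 0.0557). Same-numbered livers 2, 3 and 4 had correlations of -0.0107, -0.0915 and 0.116 in their deviations, and differently numbered livers -0.363 to 0.337. No pairing by number was seen, and these few pairs cannot exclude one. Depth was at least 22.02 M reads, and genes at a few reads, Adamts12 among them, have wide errors.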
